A study of Homo sapiens with 4 samples.

Results

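The genes of transport between the endoplasmic reticulum (ER) and the Golgi were compared in A549 cells, a human lung adenocarcinoma line, 24 hours after transfection with a synthetic miR-509-3p mimic or a negative control mimic. Members were chosen by gene symbol, with earlier results of these data known. They were the genes whose symbol starts with SEC and a number, and the coatomer (COP), TMED, TRAPPC and COG genes. Also taken were LMAN1, LMAN2, MCFD2, SAR1A, SAR1B, KDELR1, KDELR2, KDELR3 and ARCN1. A member also needed a probe with a detection p under 0.01 on 2 or more of the 4 Illumina bead arrays. This gave 70 of the 79 matching genes named on the array, out of 10239 genes measured. The other 9 were SEC14L1P1, SEC14L3, SEC14L5, SEC16B, SEC1P, SEC31B, TMED6, TMED8 and TRAPPC3L, and each was detected on 0 arrays. KDELR2 and SEC31A were not analysed here. Of the 70 members, 68 were detected on all 4 arrays. In bulk RNA, fewer cells with a transcript and less of it per cell cannot be told apart. Both groups were the same cell line transfected with Lipofectamine RNAiMAX, with 2 arrays in each group. Whether a group's arrays stem from separate cultures is not stated, so p-values cover only differences between arrays, perhaps technical ones.

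Proteins leave the ER in vesicles coated with COPII and are returned from the Golgi in vesicles coated with COPI. Cargo receptors and the p24 (TMED) proteins load these vesicles, the TRAPP and COG complexes tether them to the acceptor membrane, and SNARE proteins fuse them with it. A microRNA silences transcripts that pair with its seed, bases 2 to 8 counted from the 5′ end. The mature sequence of the transfected microRNA is shown because that seed defines the treatment. It is printed 5′ to 3′ with the seed in capitals, from RefSeq (GRCh38.p14).
miR-509-3p: uGAUUGGUacgucuguggguag
The same 22 bases are encoded at 3 loci on the minus strand of chromosome X, MIR509-1 (chrX:147260550-147260571), MIR509-2 (chrX:147258775-147258796) and MIR509-3 (chrX:147259662-147259683). Of 2370 mature human microRNA names in that table, 1 has this seed. Pairing sites in the members' transcripts were not searched, because no transcript sequence was used here.

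A few members also share a promoter feature that played no part in their choice. The unfolded protein response, which adjusts the secretory pathway to its load, acts on some promoters through the UPR element TGACGTGG, bound by XBP1 and ATF6. Of the 62 members with a RefSeq promoter window (250 bases before to 50 after the gene's start), 8 held these letters on either strand. This was 12.9%, against 1.17% of 8405 promoters of genes tested and 0.927% of all 27305 promoters of the same length. The ER stress elements ERSE (CCAAT, any 9 bases, CCACG) and ERSE-II (ATTGG, any base, CCACG) were on either strand of 0 of 62 members' windows and of 0.167% and 0.143% of the tested genes' promoters. Both end in CCACG, which can overlap the UPR element read on its other strand. A match is a description of these letters and not of binding. The 4 matches lying wholly before a gene's start with their flanks are printed, with the element in capitals, because they show the shared letters in different surroundings.
COPB1: gagtccttggcTGACGTGGaagggggtggg
COPB2: actaagggccgTGACGTGGtgccgctgagc
KDELR3: tggccgggcggTGACGTGGccagggcggcc
SEC24A: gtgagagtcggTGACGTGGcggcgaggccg
They lie at chr11:14499841-14499870 (plus strand), chr3:139389825-139389854 (plus strand), chr22:38468039-38468068 (minus strand) and chr5:134648595-134648624 (plus strand) of GRCh38.p14. The other members with a match were COPA, SEC16A, SEC23A and SEC62. Of the 22 windows of members called higher with the mimic, 2 held the element (COPA and SEC23A), as did 1 of 6 windows of members called lower (KDELR3) and 5 of 34 of the members not called.

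With the miR-509-3p mimic, many of these genes rose a little and a few fell steeply. In all, 24 of the 70 members were higher and 8 were lower, and 38 did not pass (limma, Benjamini-Hochberg adjusted p under 0.05 over all genes). This was 34.3% higher and 11.4% lower, against 18.0% and 16.5% of all genes tested. The median log2 fold change was 0.20 over the members and 0.040 over all genes. The widest rise was 0.83 on the log2 scale, whereas 4 members fell by more than 1, a 2-fold change. These were MCFD2, COG5, KDELR3 and TRAPPC6B. Of all 10239 genes tested, 420 fell and 180 rose by more than 1. Without background correction, KDELR3 and TRAPPC6B each fell by 0.94, short of a 2-fold change. Members higher on both mimic arrays than on either control array numbered 46, and 14 were lower on both, or 65.7% and 20.0%, against 40.1% and 32.8% of all genes. Together these made 60 of 70, where 72.9% of all genes had groups without overlap. They include COG8, detected on the mimic arrays alone, and COPZ2, detected on the control arrays alone. Each passed the filter only through the group where it is high. Called in either direction were 45.7% of members and 34.4% of all genes.

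The calls of a rise needed both mimic arrays. Without mimic 1 or without mimic 2, 0 members were called higher by limma and 5 were called lower, against 3.0% and 5.9% of all genes without mimic 1 and 3.5% and 6.1% without mimic 2. The members' median log2 fold change was 0.20 without mimic 1 and 0.22 without mimic 2, against 0.038 and 0.046 over all genes. The same 5 genes were called lower both times, namely MCFD2, COG5, KDELR3, TRAPPC6B and TMED4. Without control 1, 10 members were higher and 7 lower, which was 14.3% and 10.0% against 11.1% and 10.6% of all genes. Without control 2, 9 were higher and 5 lower, which was 12.9% and 7.1% against 10.3% and 10.2%. All 32 called members kept their sign in each of these fits, and the median log2 fold change of the members stayed between 0.20 and 0.22. With arrays scaled to a common median in place of quantile normalization, 14 were higher and 7 lower (20.0% and 10.0%, against 12.8% and 16.2% of all genes), and the median was 0.15 against -0.0067 over all genes. The share called was thus close to that of all genes there, 30.0% against 29.0%.

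**Figure D1:**
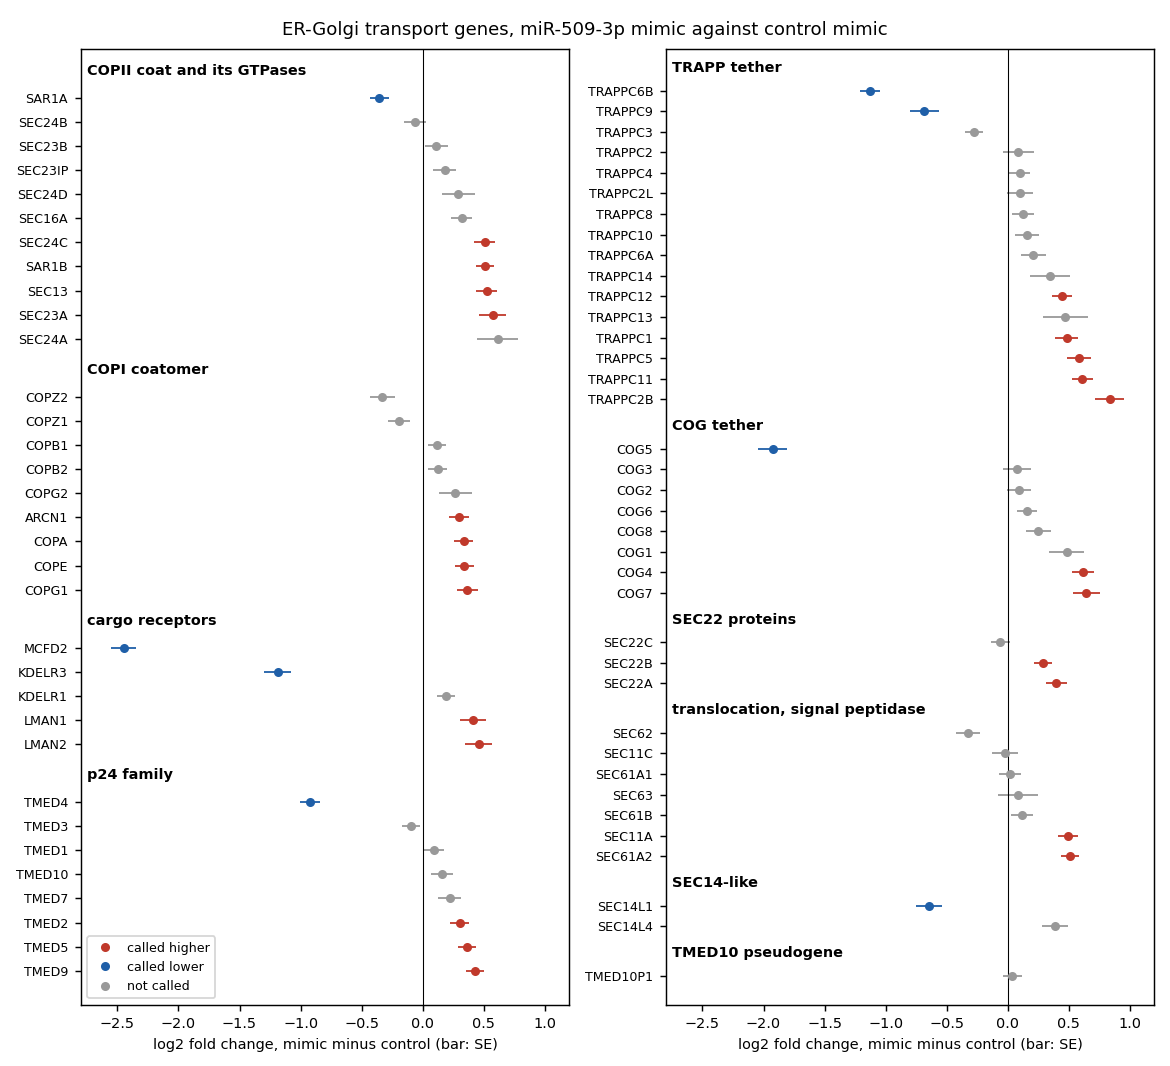
Log2 fold change of each of the 70 members (mimic minus control, 2 arrays a group, bars show the standard error), grouped by role, with members called higher in red, called lower in blue and not called in grey. MCFD2 at -2.45 and COG5 at -1.93 lie far to the left of the other members of their groups, while the called rises lie between 0.29 and 0.83.

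**Figure D2:**
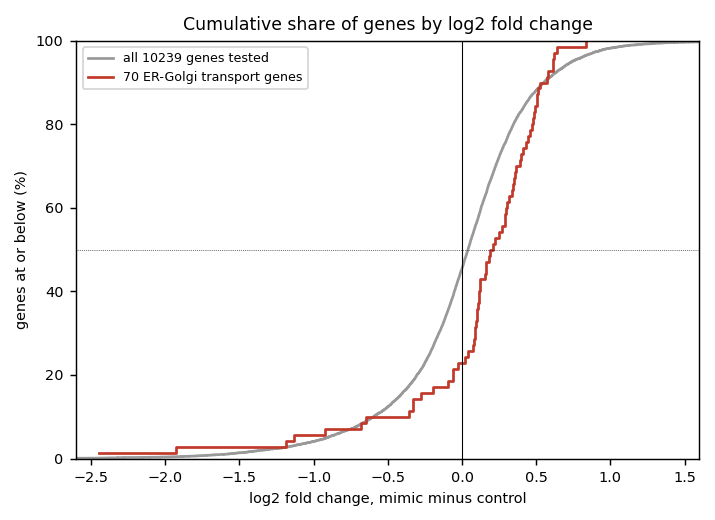
Cumulative share of genes (percent, vertical axis) at or below each log2 fold change (horizontal axis), for the 70 members and for all 10239 genes tested. The members' curve crosses 50% at 0.20 and that of all genes at 0.040, and the members' curve ends at 0.83.

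Among the cargo receptors, the export pair of LMAN1 and MCFD2 changed in opposite directions. LMAN1 (ERGIC-53) is a lectin that carries glycoproteins out of the ER, and MCFD2 is its soluble calcium-binding partner, needed to export coagulation factors V and VIII. MCFD2 had a normalized log2 signal of 11.86 and 11.71 on the control arrays and 9.26 and 9.41 on the mimic arrays. The groups were far apart, and MCFD2 fell by 2.45 ± 0.10 (estimate ± SE, n = 2 each), or 5.45-fold (limma, Benjamini-Hochberg adjusted p = 0.00226). Its second probe was detected on the control arrays alone, which puts it at least 2.59-fold lower with the mimic. LMAN1 rose by 0.41 ± 0.11, from 9.69 and 9.87 to 10.11 and 10.27, and passed narrowly, but not in 6 of the 14 alternatives of processing (limma adjusted p = 0.0446, Benjamini-Hochberg). The log2 ratio of LMAN1 to MCFD2 signals moved by 2.86, from -2.17 and -1.84 on the control arrays to 0.854 and 0.857 on the mimic arrays. Among the measured pairs of paralogs or partners this was the widest move. LMAN2 (VIP36), a related lectin of the early secretory pathway, rose by 0.46 ± 0.11, and its call was lost in 5 of the 14 alternatives.

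The KDEL receptors return escaped ER chaperones from the Golgi, and the ratio of the measured ones shifted. KDELR3 was at 9.79 and 10.01 on the control arrays and at 8.66 and 8.77 on the mimic arrays, without overlap. It fell by 1.19 ± 0.11 (limma, Benjamini-Hochberg adjusted p = 0.00450). A second probe fell by 0.93 ± 0.11, but the dimmest probe read 8.19 and 8.07 on the control arrays and 8.17 and 8.14 on the mimic arrays. Its log2 fold change of 0.027 ± 0.083 missed the threshold, so the probes of KDELR3 disagree. KDELR1 had 0.19 ± 0.074 on the log2 scale and did not pass. The log2 ratio of KDELR1 to KDELR3 went from 3.37 and 3.18 to 4.71 and 4.60, without overlap.

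**Figure D3:**
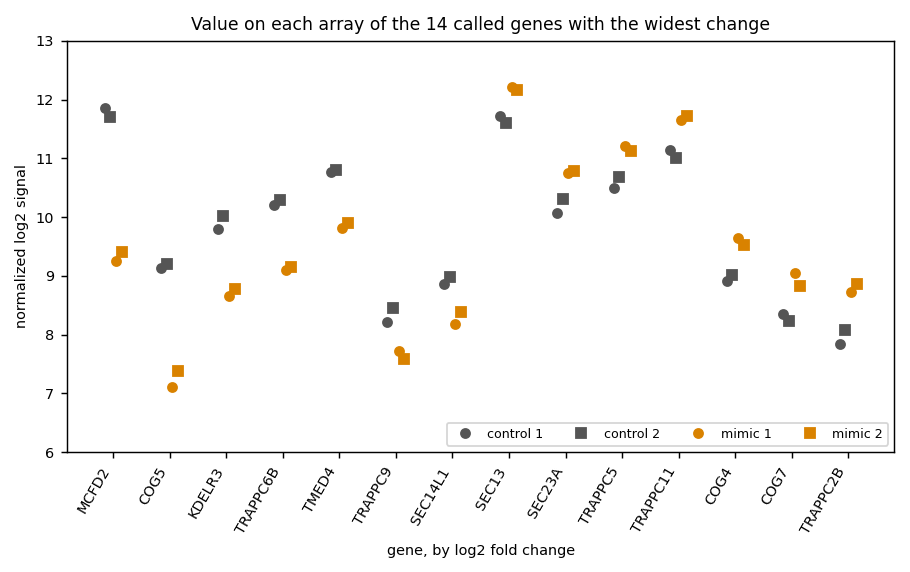
Normalized log2 signal (vertical axis) on each of the 4 arrays for the 14 called members with the widest change, ordered by log2 fold change, with controls in grey and mimic arrays in orange. In each gene both mimic arrays lie on one side of both control arrays, which follows largely from choosing called genes of wide change. Levels are not comparable between genes because each has its own probe.

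In the p24 family, whose members cycle between ER and Golgi as cargo adaptors, 3 of 8 measured genes rose and 1 fell, or 37.5% and 12.5%, against 18.0% and 16.5% of all genes. TMED4, of the alpha subfamily, read 10.76 and 10.80 on the control arrays and 9.82 and 9.90 on the mimic arrays. It fell by 0.92 ± 0.079 (limma, Benjamini-Hochberg adjusted p = 0.00384), and its second probe fell by 0.51 ± 0.12. TMED9, of the same subfamily, rose by 0.43 ± 0.075, so that their log2 ratio fell by 1.35 with no overlap between groups. TMED5, of the gamma subfamily, rose by 0.36 ± 0.074, and TMED2, of the beta subfamily, rose by 0.30 ± 0.074. The calls of TMED2 and TMED5 were each lost in 7 of the 14 alternatives and that of TMED9 in 6. TMED10, the delta subfamily's member and a partner of TMED2, had 0.16 ± 0.091, while TMED1, TMED3 and TMED7 had -0.095 to 0.22, and none of these passed. TMED10P1, a pseudogene copy of TMED10, had 0.038 ± 0.078, and signals of such near-identical copies may be shared between their probes.

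In the COPII coat, 4 of 11 measured genes rose and 1 fell, or 36.4% and 9.1%, against 18.0% and 16.5% of all genes. The GTPase SAR1 starts assembly of the coat, and its paralogs moved apart. SAR1A read 10.94 and 10.95 on the control arrays and 10.54 and 10.63 on the mimic arrays, and fell by 0.36 ± 0.078. SAR1B read 12.35 and 12.34 against 12.83 and 12.88, and rose by 0.51 ± 0.075, with 0.41 ± 0.080 on its second probe. The log2 ratio of SAR1A to SAR1B fell by 0.87, and its values did not overlap between groups. These were modest changes, with limma adjusted p-values of 0.0298 and 0.0112 (Benjamini-Hochberg). SAR1A lost its call in 7 of the 14 alternatives, median scaling among them, and SAR1B in 2.

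The inner coat of SEC23 and SEC24 selects cargo. SEC23A was at 10.07 and 10.31 on the control arrays and at 10.74 and 10.79 on the mimic arrays, and rose by 0.57 ± 0.11. Its second, dimmer probe had 0.49 ± 0.23 and did not pass, and the call of SEC23A was lost in 5 of the 14 alternatives. SEC24C rose by 0.51 ± 0.084. By contrast, SEC23B had 0.11 ± 0.095, SEC24B -0.063 ± 0.088 and SEC24D 0.29 ± 0.13, none of which passed. SEC24A had the widest estimate of the coat, 0.61 ± 0.17, but its mimic arrays differed (8.30 and 8.66) and it did not pass (limma adjusted p = 0.0525, Benjamini-Hochberg). All 3 probes of SEC24B lay between -0.087 and -0.063. SEC13, of the outer cage, read 11.73 and 11.60 against 12.21 and 12.17, and rose by 0.52 ± 0.086, with 0.55 ± 0.077 on its second probe. SEC16A, a scaffold of ER exit sites, had 0.32 ± 0.087 (limma adjusted p = 0.0508, Benjamini-Hochberg), and SEC23IP, a binding partner of SEC23, had 0.18 ± 0.093. Neither passed.

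The COPI coatomer genes that passed rose by small amounts. Of 9 measured, 4 rose, 0 fell and 5 did not pass, with 0.30 to 0.36 on the log2 scale for the calls. The shares were 44.4% higher and 0.0% lower, against 18.0% and 16.5% of all genes. COPG1 (gamma subunit) rose by 0.36 ± 0.088, COPE (epsilon) by 0.34 ± 0.075, COPA (alpha) by 0.33 ± 0.075 and ARCN1 (delta) by 0.30 ± 0.079. Their limma adjusted p-values lay between 0.0298 and 0.0482 (Benjamini-Hochberg), and each lost its call in 7 or 8 of the 14 alternatives, median scaling and each left-out array among them. COPE and COPA, which bind each other in the outer coat, kept a log2 ratio that moved by -0.0061, with overlapping groups. The second probe of COPE had 0.36 ± 0.17 and did not pass. COPB1, COPB2 and COPG2 had 0.12 to 0.27 and did not pass. The zeta subunits had estimates below 0, -0.19 ± 0.088 for COPZ1 and -0.33 ± 0.10 for COPZ2, and also did not pass. The mimic arrays did not detect COPZ2, so its level there is only a bound, which puts it at least 1.08-fold lower (limma adjusted p = 0.0715, Benjamini-Hochberg).

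The TRAPP complexes activate the GTPases RAB1 and RAB11 on Golgi membranes, and 5 of 16 measured subunits rose, 2 fell and 9 did not pass. This was 31.2% and 12.5%, against 18.0% and 16.5% of all genes. TRAPPC6B, a core subunit, read 10.21 and 10.29 on the control arrays and 9.10 and 9.15 on the mimic arrays, and fell by 1.13 ± 0.080 (limma, Benjamini-Hochberg adjusted p = 0.00292). A second probe was undetected with the mimic, which puts it at least 1.45-fold lower. The remaining probe, at 6.89 and 6.97 against 6.65 and 6.99, had -0.11 ± 0.14 and did not pass. Its paralog TRAPPC6A had 0.21 ± 0.10 and did not pass, and the log2 ratio of TRAPPC6A to TRAPPC6B rose from -0.75 and -0.96 to 0.60 and 0.38.

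TRAPPC9, a subunit of TRAPPII, fell by 0.68 ± 0.12, from 8.21 and 8.46 to 7.72 and 7.58. Its second, dimmer probe had -0.30 ± 0.17 with overlapping groups and did not pass. Among the rises was TRAPPC2B, an intronless copy of the core subunit gene TRAPPC2, at 7.85 and 8.09 against 8.73 and 8.87, which rose by 0.83 ± 0.12 (limma, Benjamini-Hochberg adjusted p = 0.0103). TRAPPC2 itself had 0.086 ± 0.13. As the copies are near-identical, their signals may be shared between probes. TRAPPC11, of TRAPPIII, rose by 0.61 ± 0.090, from 11.14 and 11.01 to 11.65 and 11.72, and both further probes also rose, by 0.42 ± 0.095 and 0.43 ± 0.076. The core subunit TRAPPC5 rose by 0.58 ± 0.097, from 10.50 and 10.67 to 11.20 and 11.13. The core subunit TRAPPC1 rose by 0.48 ± 0.094 and TRAPPC12, of TRAPPIII, by 0.45 ± 0.081. The calls of TRAPPC1 and TRAPPC12 were each lost in 5 of the 14 alternatives. TRAPPC3, another core subunit, had -0.27 ± 0.074 and narrowly did not pass (limma adjusted p = 0.0503, Benjamini-Hochberg). TRAPPC2L had 0.10 ± 0.10 and did not pass by its brightest probe, whereas its second probe rose by 0.49 ± 0.079. The remaining subunits, TRAPPC4, TRAPPC8, TRAPPC10, TRAPPC13 and TRAPPC14, had 0.099 to 0.47 and did not pass.

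The COG complex tethers vesicles that recycle Golgi enzymes, and 1 of its 8 subunits fell steeply, while 2 rose (12.5% and 25.0%, against 16.5% and 18.0% of all genes). COG5 read 9.14 and 9.20 on the control arrays and 7.11 and 7.38 on the mimic arrays. It fell by 1.93 ± 0.12, or 3.80-fold (limma, Benjamini-Hochberg adjusted p = 0.00246). The size depends on the processing, as COG5 fell by 1.22 without background correction and by 1.26 on the authors' log2 values. The lowest detected signal on each mimic array was 6.75, not far below COG5. Its further probes fell less, by 0.97 ± 0.13 and 0.61 ± 0.10, so the probes give 1 direction and different sizes. COG7, of the same lobe of the complex, rose by 0.64 ± 0.11, from 8.34 and 8.24 to 9.05 and 8.82. COG4, of the other lobe, rose by 0.62 ± 0.091, from 8.92 and 9.02 to 9.65 and 9.52. COG1 had 0.48 ± 0.14, and COG2, COG3, COG6 and COG8 had 0.075 to 0.25, and none of these passed. The control arrays did not detect COG8, so its level there is only a bound, at least 1.08-fold higher with the mimic (limma adjusted p = 0.126, Benjamini-Hochberg).

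**Figure D4:**
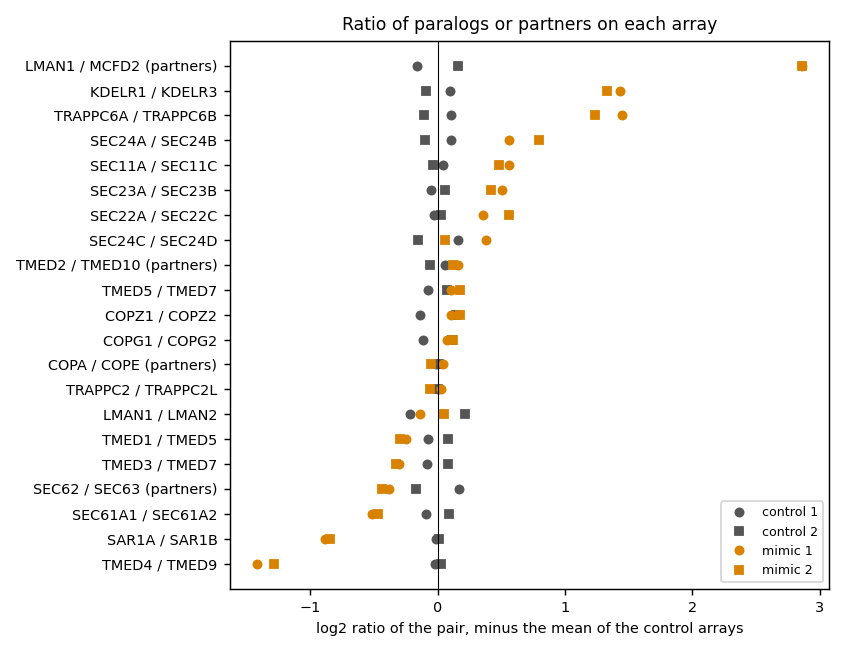
Log2 ratio of the signals of 21 pairs of paralogs or complex partners on each array, minus the mean of the control arrays (horizontal axis), with controls in grey and mimic arrays in orange. The ratios of LMAN1 to MCFD2, KDELR1 to KDELR3 and TRAPPC6A to TRAPPC6B moved by 2.86, 1.38 and 1.34, and that of TMED4 to TMED9 by -1.35.

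Of the 26 pairs of paralogs or partners listed by name, 21 had both genes measured, and in 15 (71.4%) the mimic arrays lay wholly to one side of the control arrays. Of all single genes 72.9% did so, and the count by itself shows nothing particular to these pairs. With 2 arrays against 2, the smallest two-sided p of an exact permutation test is 0.333, so no pair can pass alone. A ratio within an array shows unequal change of its 2 genes, and not which of them changed. Pairs with overlapping groups included LMAN1 with LMAN2, COPG1 with COPG2 and SEC24C with SEC24D.

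The rule also took in genes that act before or beside the vesicle step. SEC22B, a SNARE of ER to Golgi transport, rose by 0.29 ± 0.073, and SEC22A, a relative without a SNARE motif, rose by 0.40 ± 0.085. Each of these calls was lost in 7 of the 14 alternatives, median scaling among them. SEC22C had -0.062 ± 0.078 and did not pass, and its 3 probes did not share a sign. Of 7 genes of protein entry into the ER, 2 rose and 0 fell. This was 28.6% and 0.0%, against 18.0% and 16.5% of all genes. SEC11A, a catalytic subunit of signal peptidase, rose by 0.49 ± 0.083, while its paralog SEC11C had -0.026 ± 0.11. SEC61A2 rose by 0.51 ± 0.073, while SEC61A1, the main channel subunit of the translocon, had 0.017 ± 0.093 and SEC61B had 0.11 ± 0.092. SEC62 had -0.33 ± 0.098 and SEC63 0.080 ± 0.16, and these did not pass. The lipid-binding gene SEC14L1 read 8.86 and 8.99 on the control arrays and 8.17 and 8.39 on the mimic arrays. It fell by 0.64 ± 0.11, and its further probes fell by 1.21 ± 0.16 and 0.78 ± 0.14. SEC14L4 had 0.39 ± 0.11 (limma adjusted p = 0.0527, Benjamini-Hochberg) and did not pass. Without the translocation and SEC14-like genes and the pseudogene, 22 of 60 members were higher and 7 lower. This was 36.7% and 11.7%, against 18.0% and 16.5% of all genes. The median log2 fold change was 0.24, against 0.040 over all genes.

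Of the 70 members, 19 had 2 or more kept probes, and 12 of these were called by their brightest one. Of the 17 further probes of those 12 genes, 16 had the sign of the brightest, and 12 were called with it when adjusted over all kept probes, of which 29.7% were called. Those counts include the second probes of MCFD2 and TRAPPC6B, which passed the filter only through the control arrays, where they are high. Of the 15 probes detected in both groups, 14 had the sign of the brightest and 10 were called with it. The exception in sign was the dimmest probe of KDELR3. Of 9 further probes of the members not called, 1 was called, that of TRAPPC2L.

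**Figure D5:**
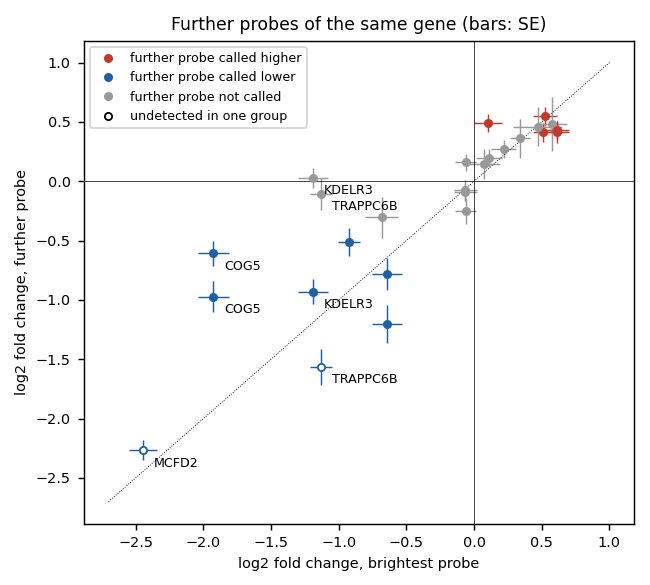
Log2 fold change of each further kept probe (vertical axis) against that of the brightest probe of the same gene (horizontal axis), with standard errors, coloured by whether the further probe was called, with a dotted line of equality. Open symbols mark the second probes of MCFD2 and TRAPPC6B, whose position is the measured difference and not a size, since they were undetected with the mimic. The further probes of COG5 and 1 probe each of KDELR3 and TRAPPC6B lie well above the line.

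A list of 61 other genes of ER to Golgi transport, none of them members, gave 53 measured genes. Of these, 9 rose, 8 fell and 36 did not pass (limma, Benjamini-Hochberg), or 17.0% and 15.1%, close to the 18.0% and 16.5% of all genes. The median log2 fold change of the 53 was 0.13, against 0.040 over all genes. Without overlap between groups, 50.9% were higher and 22.6% lower, against 40.1% and 32.8% of all genes. ZW10, which also tethers Golgi vesicles at the ER, rose by 1.83 ± 0.083. GOLGA2 (GM130) and GOLGB1 (giantin), long tethers of the Golgi, rose by 0.84 ± 0.10 and 0.60 ± 0.084. MIA2, a receptor that helps load large cargo at ER exit sites, was detected on the mimic arrays alone, and so passed the filter only through the group where it is high. It was at least 1.68-fold higher (limma adjusted p = 0.00444, Benjamini-Hochberg), and among the 52 genes detected in both groups 8 rose and 8 fell. Falls were led by GOSR1, a Golgi SNARE, which fell by 1.69 ± 0.13 with a probe detected on 1 of the 2 mimic arrays. RAB2B fell by 1.01 ± 0.081, and the GTPase ARF3 fell by 0.82 ± 0.085. PEF1, which helps ubiquitinate the COPII cage, fell by 0.70 ± 0.080.

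As to the arrays, the median probe signal was 202 to 207 and 33.7% to 34.7% of the 47320 probes were detected. Across genes, which are not independent replicates, values correlated at r = 0.994 and 0.996 within groups and 0.967 to 0.968 across them. Of 8 lung epithelial markers, 6 were detected on all arrays, while the defining marker KRT18 was detected on 1 and CLDN7 on 0. Their summed log2 level was 15.64 to 15.73 in the controls and 15.30 to 15.32 with the mimic. The 6 endothelial markers were detected on 0 arrays, as were 5 of 6 fibroblast markers and, of 5 leukocyte markers with a probe, PTPRC, CD3E and LYZ. The leukocyte sum was 12.04 to 12.11 in the controls and 12.74 to 12.79 with the mimic, through CD68 and CD14, and its part in the results above was not tested.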

How the data were processed

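Total RNA of 4 samples was biotin-labelled and hybridised to bead arrays (per the labels' protocols). The authors deposited probe intensity on a linear scale and a detection p-value for each probe, credited to GenomeStudio 2009.2 per the submitters' processing notes. The authors also deposited log2 values of 19069 probes, of unstated making, which served as an alternative. Limma 3.58.1 in R 4.3.3 corrected background (neqc, offset 16), quantile normalized and took log2. Of 47320 probes, 16561 were kept at detection p under 0.01 on at least 2 of 4 arrays. Names came from the platform annotation, updated through RefSeq (GRCh38.p14), which matched 30092 of 30113 named probes. Each gene took the values of its brightest kept probe.

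Variances were shrunk over all kept probes (2 residual and 2.48 prior degrees of freedom) and p-values adjusted by Benjamini-Hochberg over 10239 genes. On simulated data for 10239 genes the fit recovered 22 of 66 genes changed by 0.5, 53 of 54 changed by 1 and 79 of 80 changed by 2 on the log2 scale. The number of arrays limits the precision.

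Members and lists were chosen with earlier results of these data known, and the promoter motifs and the alternatives for pairs after the data were seen. Genes named with their array values were the 14 called members with the widest change and members whose probes differed in sign with 1 called. All called members were named, and of the other genes the 4 widest called in each direction. Array values of LMAN1, SAR1A, SAR1B and SEC24A were added after their values were seen. A bound for a probe undetected in a group sets the other group's mean against the lowest detected signal of each array. Figures were drawn with matplotlib 3.10.9.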

Additional observations from a re-analysis of the deposited data

How the results depend on the processing

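All 32 called members kept their sign in each of the 14 alternatives. MCFD2, COG5, KDELR3, TRAPPC6B and TMED4 passed in every one. The calls of COG7, SEC11A, SEC13, SEC14L1, SEC24C, TRAPPC5 and TRAPPC9 were each lost in 4 of the 14. Those of COG4, SEC61A2, TRAPPC11 and TRAPPC2B were each lost in 2. All 32 calls held without background correction, with an offset of 50, on the authors' processed values and with platform symbols. They held too with probes detected on all 4 arrays and with a trended and robust variance. Without background correction 28 members were higher and 10 lower (40.0% and 14.3%, against 22.1% and 18.8% of all genes). With a trended and robust variance 31 were higher and 11 lower (44.3% and 15.7%, against 24.1% and 20.7%). Calls fell with median scaling to 14 higher and, of all genes, 2974. Without a filter on detection, 20039 genes were tested and 1729 were called. Of the members, 5 were higher and 5 lower (6.3% each, against 3.8% and 4.8% of all genes). Of the other ER-Golgi genes, 4 were higher and 5 lower. With the replicate block, 15 members were higher, 7 lower and 22 of the 32 calls held. Called in either direction there were 31.4% of members and 25.7% of all genes. The labels share only numbers, and deviations of same-numbered arrays correlated at -0.057 across genes. These values thus show no common replicate effect, but cannot tell whether same-numbered arrays were handled together. With a trended and robust variance 16 of the 53 other ER-Golgi genes were higher, where 24.1% of all genes were. Leaving out 1 array, with the lone array assumed to vary like the other group, gave 917 to 2229 genes called, 0 to 10 members higher and 5 to 7 lower, and 2 to 5 other genes higher and 3 to 5 lower.

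Changes of sign occurred in members that did not pass in those fits. SEC61A1 had -0.068 with median scaling. Over the fits leaving out 1 array, SEC61A1 ranged from -0.067 to 0.10, SEC63 from -0.13 to 0.29, SEC11C from -0.11 to 0.057, COG2 from -0.0046 to 0.19, COG3 from -0.054 to 0.20, TRAPPC2 from -0.070 to 0.24 and TRAPPC2L from -0.010 to 0.21. The cause was not tested. Levels near background limit the second probes of MCFD2 and TRAPPC6B, the values of COG5 on the mimic arrays, and the bounds of COG8 and COPZ2.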
